A study of Mus musculus with 12 samples.

Results

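The apoptosis regulators described here are 9 genes, chosen by name: the pore-forming effectors Bax and Bak1, the BH3-only activators Bbc3 and Bcl2l11, the anti-apoptotic guardians Bcl2, Bcl2l1 and Mcl1, and the initiator caspases Casp8 and Casp9. They are 9 of the 54146 genes counted, and all 9 were found by their Ensembl identifiers and passed the filter on low counts with 18628 genes in all. Their level was followed in the whole retina of 12 mice, with 1 eye and 1 library per mouse. Mice of 3 ages with a photoreceptor (PR)-specific Otx2 knock-out (cKO) were compared with P30 control mice, to ask whether the machinery of cell death changed in the first days after the transcription factor OTX2 was lost. The cKO mice were Crx-CreERT2;Otx2 flox/flox, on a 129/SV background, and a single tamoxifen injection at P30 activated the recombinase. They were killed 2, 4 and 8 d later, at P32 (mice 4, 5 and 6), P34 (mice 7, 8 and 9) and P38 (mice 10, 11 and 12). The P30 group (mice 1, 2 and 3, day 0) is labelled only as control, and its genotype and tamoxifen status are not given for each mouse. The study's own descriptions disagree on how many P30 mice were analysed, and all 3 labelled libraries are used here. Age, tamoxifen and deletion therefore change together between P30 and every cKO group and cannot be told apart. CreERT2 is driven by the Crx promoter, which is active in PRs, so the deletion is limited to those cells while the library holds all cells of the retina.

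Apoptosis through mitochondria is decided by the BCL2 family. BAX and BAK1 open the outer mitochondrial membrane, BCL2, BCL-XL (the product of Bcl2l1) and MCL1 hold them back, and BH3-only proteins such as PUMA (Bbc3) and BIM (Bcl2l11) release that brake when the cell is stressed. Cytochrome c then leaves the mitochondrion and activates caspase 9 on the APAF1 scaffold, whereas caspase 8 is activated at death receptors of the cell surface. In the mature retina the family is known for its part in PR loss after light damage, retinal detachment and inherited dystrophy. Much of its control is exerted on the proteins, by binding, cleavage and turnover, which a count of mRNA does not measure.

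The short helix called BH3 is what the BCL2-family members share, and it is the surface through which they bind one another. Its coding sequence is shown for the 7 family members because both the pro- and the anti-apoptotic genes compared below carry it. Capitals mark the codon of the conserved leucine and, after 3 codons between, the codons of a glycine or alanine and of the aspartate that follows it. The sequences are from GRCm38, 5′ to 3′ on the coding strand, and each lies in 1 exon.
Bax: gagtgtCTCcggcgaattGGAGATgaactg
Bak1: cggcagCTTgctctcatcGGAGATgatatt
Bbc3: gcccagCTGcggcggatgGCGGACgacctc
Bcl2l11: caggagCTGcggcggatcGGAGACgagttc
Bcl2: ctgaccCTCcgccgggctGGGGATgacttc
Bcl2l1: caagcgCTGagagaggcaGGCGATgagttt
Mcl1: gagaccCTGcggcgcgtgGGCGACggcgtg
Bbc3 is the 1 member of the 7 whose middle marked codon encodes alanine. Read with any codons between, this leucine, glycine or alanine, and aspartate spacing occurs in 23.9% of the 21584 coding genes searched, so the letters alone do not mark a BH3 helix. The Bax window is in exon 3 of 6 at chr7:45466000-45466029 on the minus strand, and that of Bak1 in exon 4 of 6 at chr17:27022534-27022563, also minus. Bbc3 carries it in exon 3 of 4 at chr7:16313767-16313796 on the plus strand, and Bcl2l11 in exon 3 of 4 at chr2:128147144-128147173, plus. In Bcl2 it falls in exon 1 of 2 at chr1:106712578-106712607 on the minus strand, in Bcl2l1 in exon 2 of 3 at chr2:152829700-152829729, minus, and in Mcl1 in exon 1 of 3 at chr3:95659430-95659459, plus.

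The caspases belong to another family and are shown for the cysteine that cuts their substrates. Capitals mark its codon.
Casp8: caggctTGCcaagga
Casp9: caggccTGCggtggt
The Casp8 window is in exon 8 of 9 at chr1:58844613-58844627 and that of Casp9 in exon 6 of 9 at chr4:141807247-141807261, both on the plus strand. The pattern these 15 bases encode with any residue at the position before the last is present in 0.38% of the coding genes searched.

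The libraries held 29701483 to 60145034 counts on genes. Levels are given as CPM, the counts of a gene relative to its library total with totals scaled between libraries by edgeR's TMM factors, or as RPKM, the CPM divided by exon length in kilobases, where genes are compared with each other. Otx2 itself ranged from 293 to 328 CPM in the P30 mice and from 307 to 377 CPM in the 9 cKO mice. The floxed allele loses 1 coding exon while the rest of the message is still made, so a count over the whole gene does not measure the deletion, and "cKO" below means the libraries labelled so. Rod markers (5 genes summed) were at 59319 to 65477 CPM at P30, 53985 to 58731 at P32, 67322 to 90451 at P34 and 65922 to 99717 at P38, so the tissue was retina with abundant rods. The study counts the retinal pigment epithelium (RPE) as part of the extracted tissue, and the share of tissue outside the neural retina was uneven. The summed level of 7 lens genes ran from 238 to 37949 CPM, and that of 6 RPE genes reached 378 and 432 CPM in P30 mice 3 and 2, against 25.5 to 83.8 CPM in the other 10. By Xist and Y-linked counts the 3 P30 mice were female and the cKO groups were mixed. In whole tissue, fewer cells of a type and less mRNA per cell cannot be told apart.

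One library stands apart in the size of its deviations. In P32 mouse 4 the deviation of a gene from its median over the 12 mice fell with exon length (Spearman rho -0.46 over 18614 genes, against -0.28 to 0.32 in the other 11), with a median log2 deviation of 0.46 for genes with at most 2000 bases of exon and of -0.38 for genes with 6000 or more. Over the 9 members rho was -0.85 in this mouse, and it was -0.68 in P32 mouse 5 and 0.87 and 0.80, in the other direction, in P34 mice 8 and 9, where the medians of short and long genes deviated by at most 0.061 in size. Bax has the shortest exons of the 9, at 1576 bases, and was highest in that mouse, whereas Bcl2 has the longest, at 9157 bases, and was lowest in it. The main differences of Bax, Bbc3 and Bcl2 that involve P32 are given with and without it. Where exons of 2 genes overlap, reads can be lost or shared. Bax overlaps Gm45808 by 192 bases, Bcl2 a gene on the other strand by 558 and Casp9 2 such genes by 188. These partners held 0 counts in every library. That does not show that the members lost no reads, since a lost read is credited to neither gene.

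**Figure D1:**
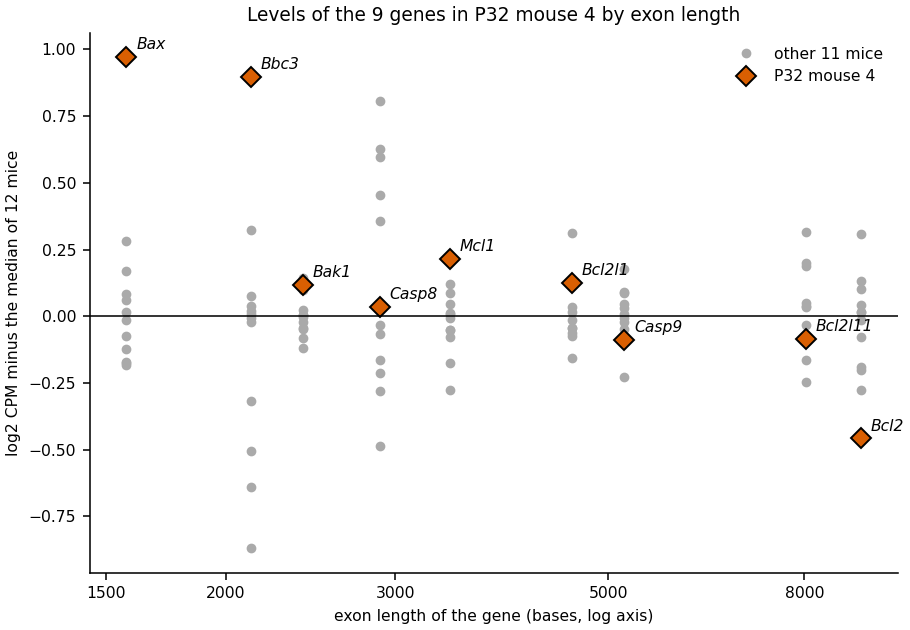
Log2 CPM of each of the 9 genes minus its median over 12 mice (vertical axis), against the gene's exon length in bases on a log axis (horizontal axis), with P32 mouse 4 as labelled diamonds and the other 11 mice as grey points. Bax and Bbc3, with short exons, lie highest in mouse 4 and Bcl2, with the longest, lies lowest.

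No difference of the 9 regulators passed the test in edgeR's fit of all 12 mice, although the largest, in Casp8, Bbc3 and Bax, were between 0.6 and 0.8 in size on the log2 scale. Called here means an adjusted p of at most 0.05 in edgeR's quasi-likelihood test (Benjamini-Hochberg over the 18628 genes) together with a difference from 0 of 0.5 or more on the log2 scale. None of the 9 was called against P30 at P32, where 0.0% of all genes were called, at P34, where 0.66% were, or at P38, where 0.0% were. Among the cKO ages, 0 of 9 were called between P34 and P32 (0.242% of all genes), P38 and P34 (0.199%) and P38 and P32 (0.0%). The 9 cKO mice together against P30 gave 0 of 9 (0.0537% of all genes), and a joint test of any difference among the 4 groups gave 0 of 9 (0.344%). At an unadjusted p of at most 0.05 with no limit on the fold, Bax and Bcl2 passed at P32 (5.64% of all genes did), Casp8 at P34 (10.5%) and no member at P38 (5.64%). The same unadjusted limit passed Bax between P34 and P32 (26.9%), Bax and Bcl2 between P38 and P32 (23.3%), none between P38 and P34 (5.08%), none for the 9 cKO mice together (2.63%), and Bax in the joint test (17.2%). With the fold limit kept, an unadjusted p of at most 0.05 passed 0 of 9 at P32 (2.9% of all genes), Casp8 at P34 (6.27%), 0 at P38 (3.46%), Bax between P34 and P32 (14.4%), 0 between P38 and P34 (3.81%), Bax between P38 and P32 (11.9%) and 0 for the 9 cKO mice together (1.88%).

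The limits on a change that could have been missed differ between the members. For Bak1, Bcl2l11, Bcl2l1, Mcl1 and Casp9, the 95% intervals of the log2 fold change against P30 lay within 0.5 of 0 at all 3 ages, as did those of 27% of all genes tested. Bcl2l11 was only just inside, with upper bounds of 0.493 at P32 and 0.49 at P38, and these reached up to 0.583 (without P32 mouse 4) and 0.601 (without P38 mouse 11) when 1 mouse was left out. The Bcl2l1 bound at P34 reached 0.517 without P34 mouse 8, and for Bak1, Mcl1 and Casp9 the intervals stayed inside without any 1 mouse. Bcl2 kept within it at P34 and P38, and Bax, Bbc3 and Casp8 at none of the 3 ages. Over the members the median log2 fold change was 0.06, -0.04 and 0.03 at P32, P34 and P38, beside -0.0088, -0.0013 and -0.0091 for all genes tested. Of the 9 members, 7 had a fold change above 0 at P32, 3 at P34 and 5 at P38.

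**Figure D2:**
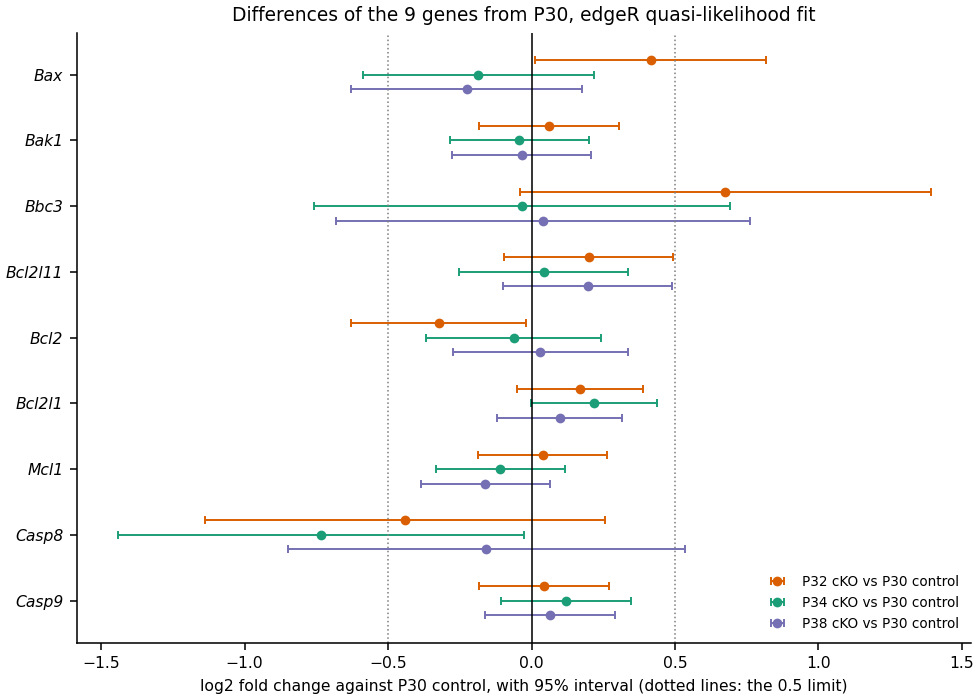
Log2 fold change against P30 control (horizontal axis) for each of the 9 genes (vertical axis) at P32, P34 and P38, as points with 95% intervals from edgeR's fit of all 12 mice. Dotted lines mark the 0.5 limit; the intervals of Bak1, Bcl2l11, Bcl2l1, Mcl1 and Casp9 lie inside it at all 3 ages, and those of Bbc3 and Casp8 are the widest.

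Bax (ENSMUSG00000003873, chr7:45461697-45466898, minus strand) encodes the effector that moves from the cytosol to the mitochondrion when a cell commits to apoptosis. It was at 21.0, 19.5 and 18.8 CPM in P30 mice 1, 2 and 3, and at 36.6, 22.7 and 19.8 CPM in P32 mice 4, 5 and 6. P34 mice 7, 8 and 9 had 18.5, 16.5 and 17.1 CPM, and P38 mice 10, 11 and 12 had 17.7, 16.4 and 16.5 CPM. P32 mouse 4 was far above every other mouse, P32 mouse 6 lay within the P30 values, and the P34 and P38 mice all lay below the 3 P30 mice. Set against P30, log2 fold changes were 0.42 at P32 (SE 0.18, adjusted p = 0.698), -0.19 at P34 (SE 0.18, adjusted p = 0.77) and -0.23 at P38 (SE 0.18, adjusted p = 0.861). Without mouse 4 the P32 value was 0.10 (SE 0.11, unadjusted p = 0.343), while the P38 value was again -0.23 with a smaller error (SE 0.09, unadjusted p = 0.0358, adjusted p = 0.479). With the sex of the mouse as a covariate the later values were -0.38 at P34 (SE 0.18, adjusted p = 0.393) and -0.42 at P38 (SE 0.18, adjusted p = 0.503).

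Leaving aside the sparse Bbc3 and Casp8, the steepest difference of any member was that of Bax between P32 and the later ages. From P32 to P34 it was -0.60 on the log2 scale (SE 0.19, unadjusted p = 0.00717, adjusted p = 0.0985), and from P32 to P38 -0.64 (SE 0.19, adjusted p = 0.117). It passed the threshold with DESeq2 (-0.61, adjusted p = 0.0312, and -0.65, adjusted p = 0.0273), and in edgeR when P32 mouse 6, the lowest of its group, was left out (-0.77, adjusted p = 0.0175, and -0.81, adjusted p = 0.0232). In those fits 7.55% and 5.0% of all genes were called with DESeq2, and 14.3% and 10.2% without mouse 6. Without P32 mouse 4 these differences were -0.29 (adjusted p = 0.253) and -0.33 (adjusted p = 0.265), and with offsets for exon length and GC content, which were added after the data were seen, -0.28 (adjusted p = 0.113) and -0.38 (adjusted p = 0.1). The direction held in each of these fits, and every P34 and P38 mouse lay below every P32 mouse.

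Bak1 (ENSMUSG00000057789, chr17:27019810-27029009, minus strand), the effector that already sits in the mitochondrial membrane, was the steadiest of the 9. Its level was 10.1, 9.99 and 9.98 CPM at P30 and 10.8, 10.98 and 9.64 CPM at P32. At P34 it was 10.7, 9.16 and 9.41 CPM, and at P38 9.92, 9.66 and 9.81 CPM. The highest of the 12 mice was 1.20 times the lowest, where the median gene of those tested spanned 1.91 times. The 3 P38 mice lay just under the 3 P30 mice, with a log2 fold change of -0.03 (95% interval -0.28 to 0.21) by edgeR. On a scaling by library total in place of TMM that separation was not seen. Bak1 shares 614 exon bases with Ggnbp1 on the other strand, which had 96 to 332 counts.

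Of the BH3-only pair, Bbc3 (ENSMUSG00000002083, chr7:16308393-16318205, plus strand) encodes PUMA, a target of p53, and was sparse. It held 34 to 115 counts per library. Its level was 0.978, 1.84 and 1.93 CPM at P30 and 3.45, 2.30 and 1.80 CPM at P32. The P34 mice had 1.88, 1.27 and 1.46 CPM and the P38 mice 1.82, 1.85 and 1.15 CPM. Here too P32 mouse 4 was the highest of the 12, P32 mouse 6 fell inside the P30 range, and all groups overlapped with P30. The log2 fold change at P32 was 0.68 (SE 0.33, 95% interval -0.04 to 1.39, adjusted p = 0.698) and 0.38 (SE 0.33) without mouse 4. Against P32 it was -0.71 at P34 (SE 0.33, unadjusted p = 0.0538, adjusted p = 0.193) and -0.63 at P38 (SE 0.33, adjusted p = 0.261), and -0.42 and -0.34 (SE 0.33 in both) without mouse 4. Against P30, at P34 and P38 it was -0.03 and 0.04 (SE 0.33 in both). Without P30 mouse 1, the lowest of the 12, the values were 0.41 at P32, -0.29 at P34 and -0.22 at P38.

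Bcl2l11 (ENSMUSG00000027381, chr2:128126038-128162547, plus strand) encodes BIM, which binds all the anti-apoptotic proteins and is induced by loss of trophic support. Its values were 14.7, 15.6 and 16.1 CPM at P30 and 15.5, 18.9 and 18.8 CPM at P32. The P34 mice were at 13.9, 16.9 and 17.1 CPM and the P38 mice at 20.5, 15.6 and 16.9 CPM. In each cKO group 2 of 3 mice lay above the P30 range, and the remaining mouse lay inside it at P32 and P38 and below it at P34. The log2 fold changes against P30 were 0.20 at P32, 0.04 at P34 and 0.20 at P38 (SE 0.13 in each), with adjusted p of 0.698, 0.947 and 0.847 by edgeR, and without P38 mouse 10 the P38 value was 0.08 (SE 0.13). The difference for the 9 cKO mice together was 0.15 (SE 0.11, 95% interval -0.10 to 0.39).

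Among the guardians, Bcl2 (ENSMUSG00000057329, chr1:106538178-106714274, minus strand) is the founding member, held on mitochondria and the endoplasmic reticulum. It was at 19.9, 19.9 and 21.1 CPM at P30 and at 14.3, 17.1 and 17.2 CPM at P32. The P34 mice had 18.6, 20.2 and 19.5 CPM, and those of P38 had 24.4, 21.6 and 16.2 CPM. All 3 P32 mice lay below all 3 P30 mice, the P34 mice lay above those of P32 and overlapped P30, and the P38 mice spread over nearly the whole range. At P32 the log2 fold change was -0.32 (SE 0.14, unadjusted p = 0.0398, adjusted p = 0.698), and -0.24 (SE 0.15, unadjusted p = 0.125) without mouse 4. Between P32 and P38 it was 0.35 (SE 0.14, adjusted p = 0.171), and 0.27 (SE 0.15, adjusted p = 0.451) without that mouse.

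Bcl2l1 (ENSMUSG00000007659, chr2:152780668-152831728, minus strand), whose main product in neurons is BCL-XL, is one of the best expressed members. In the P30 mice it had 78.2, 73.9 and 79.9 CPM, and in the P32 mice 89.9, 89.5 and 81.5 CPM. The P34 mice had 102, 83.2 and 84.5 CPM and the P38 mice 89.7, 78.8 and 79.8 CPM. The P32 and P34 mice all lay above the P30 mice, while at P38 2 of 3 mice were back among them. The fold at P34 was 1.16 (95% interval 1.0 to 1.35, unadjusted p = 0.0501, adjusted p = 0.478) and at P32 1.12 (0.966 to 1.31, adjusted p = 0.698) by edgeR. Without P34 mouse 7, the highest of the 12, the log2 fold change at P34 went from 0.22 to 0.11 (SE 0.10, unadjusted p = 0.278). For the 9 cKO mice together it was 1.12 (0.988 to 1.27, unadjusted p = 0.0735, adjusted p = 1.0). The file counts sum the isoforms of the gene, so the pro-apoptotic short form and the protective long form were not separated.

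Mcl1 (ENSMUSG00000038612, chr3:95658788-95663176, plus strand), a guardian of short half-life, was the most abundant of the 9 by length. Its level was 99.98, 92.8 and 92.4 CPM at P30 and 107, 94.9 and 91.4 CPM at P32. At P34 it was 88.8, 87.0 and 88.8 CPM, and at P38 97.8, 81.3 and 76.0 CPM. The P34 mice sat close together under the P30 mice and under those of P32, and P38 mouse 10 lay among the P30 values. The log2 fold changes against P30 were 0.04 at P32, -0.11 at P34 and -0.16 at P38 (SE 0.10 in each, adjusted p = 0.905, 0.754 and 0.847 by edgeR). Without P32 mouse 4 the P32 value was -0.03, and without P38 mouse 10 the P38 value was -0.26 (SE 0.10, unadjusted p = 0.02, adjusted p = 0.915).

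Casp8 (ENSMUSG00000026029, chr1:58795374-58847503, plus strand), the initiator at death receptors, was close to the lower end of what these libraries resolve, with 23 to 67 counts per library. The P30 mice had 0.836, 1.35 and 1.57 CPM and the P32 mice 0.900, 1.14 and 0.715 CPM. In the P34 mice it was at 0.856, 0.612 and 0.779 CPM, and in the P38 mice at 1.38, 0.751 and 1.22 CPM. P30 mice 2 and 3 were high and P30 mouse 1 low, and every cKO group overlapped with P30. At P34 the log2 fold change was -0.73 (SE 0.32, 95% interval -1.44 to -0.02, unadjusted p = 0.0436, adjusted p = 0.464 by edgeR), and at P32 and P38 -0.44 and -0.16 (SE 0.32 in both). Leaving out P30 mouse 1 gave -0.96 at P34 (unadjusted p = 0.0136, adjusted p = 0.444) and P30 mouse 3 -0.55 (unadjusted p = 0.145). The summed RPE markers were also high in P30 mice 2 and 3 and at 67.4 CPM in mouse 1, and 5 smooth muscle genes summed to 181 and 197 CPM in those mice against 29.5 CPM in mouse 1. Their part in the Casp8 values was not tested. In P38 mice 10 and 12, where Casp8 was also high, the same lists were at 83.8 and 25.5 CPM for RPE and 22.7 and 16.6 CPM for smooth muscle.

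Casp9 (ENSMUSG00000028914, chr4:141793612-141815976, plus strand), the initiator on the apoptosome, was well expressed and level. It had 34.7, 36.0 and 29.8 CPM at P30 and 32.8, 33.8 and 37.0 CPM at P32. The later mice had 37.2, 32.7 and 39.5 CPM (P34) and 35.1, 35.7 and 34.4 CPM (P38). All groups overlapped, and the highest mouse was 1.33 times the lowest. The log2 fold changes against P30 were 0.04, 0.12 and 0.06 at P32, P34 and P38 (SE 0.10 in each), and the interval over the 9 cKO mice together was -0.10 to 0.26.

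**Figure D3:**
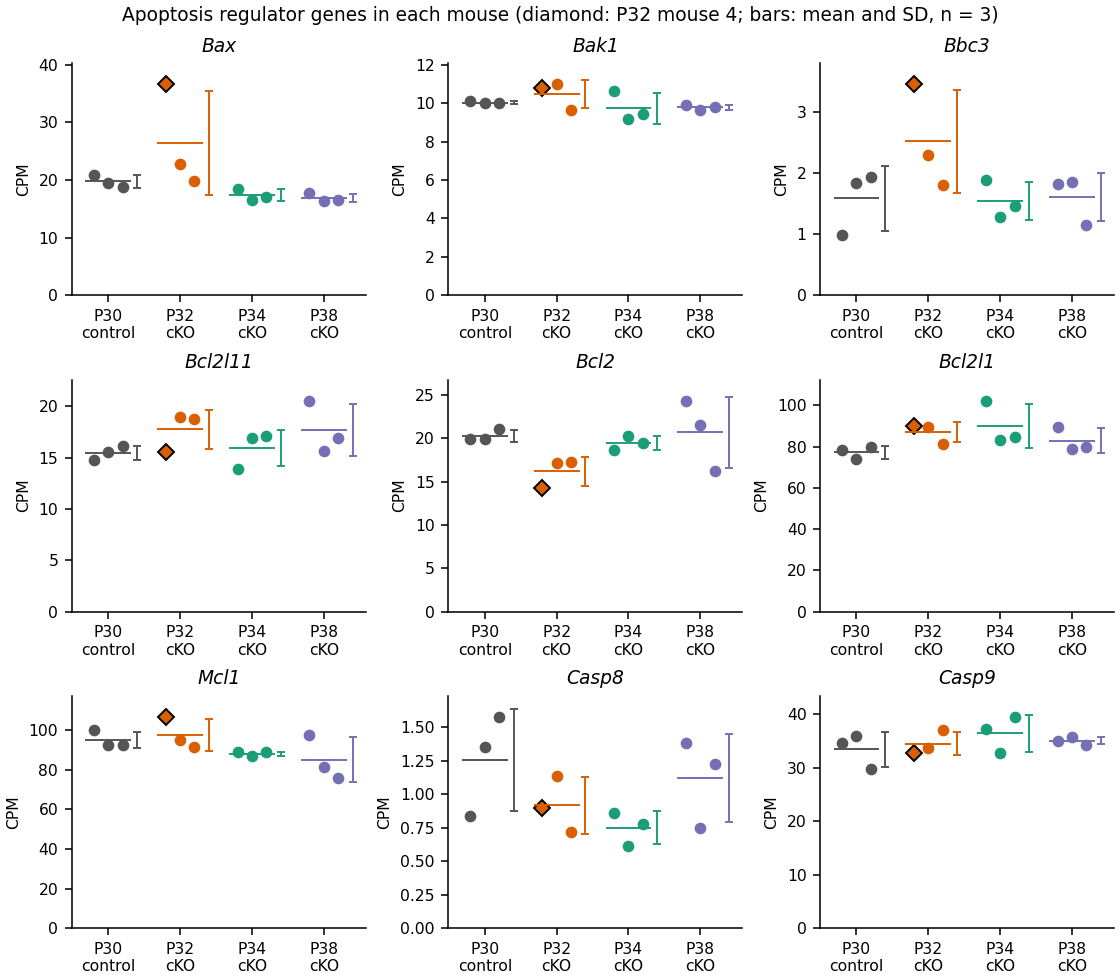
CPM of each of the 9 genes (vertical axes, from 0) in every mouse by group (horizontal axes), with the mean as a line and the SD beside it (n = 3 per group). P32 mouse 4, drawn as a diamond, reaches 36.6 CPM for Bax and 3.45 CPM for Bbc3, while Bak1 stays between 9.16 and 10.98 CPM in all 12 mice.

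Counted by separation of the groups, 2 of the 9 members did not overlap with P30 at P32 (Bcl2 lower, Bcl2l1 higher), beside 9.65% of all genes. At P34 3 of 9 did not (Bax and Mcl1 lower, Bcl2l1 higher), beside 20.1%, and at P38 2 of 9 (Bax and Bak1 lower), beside 16.2%. Between P34 and P32, Bax and Mcl1 were lower and Bcl2 higher without overlap, beside 28.4% of all genes, and between P38 and P32 Bax alone was lower, beside 26.4%. No member separated P38 from P34 (9.95% of all genes did) or the 9 cKO mice from P30 (0.601%). Bax below P30 at P34 and P38, and Bcl2 and Bcl2l1 at P32, kept these places under TMM, DESeq2 size factors and library totals. Mcl1 at P34, Bak1 at P38 and Bcl2 between P34 and P32 lost them under library totals. On that scale, where more of all genes were lower than higher at the later age in these comparisons, other members separated. Casp8 was lower at P34 (10.7% of all genes lower, 7.79% higher) and Mcl1 at P38 (11.1% and 3.77%) against P30, Bbc3 was lower at P34 than at P32 (20.1% and 8.43%), and Bax and Bcl2l1 were lower at P38 than at P34 (7.64% and 4.13%). Between P38 and P32, 5 of 9 were lower without overlap under library totals (Bax, Bak1, Bbc3, Bcl2l1 and Mcl1), beside 24.0% of all genes lower and 5.75% higher.

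By length the members spanned a wide range, with the guardians Mcl1 and Bcl2l1 at the top and Bbc3 and Casp8 at the bottom. Medians over the 12 mice were 26.9 RPKM for Mcl1, 18.0 for Bcl2l1, 11.8 for Bax, 6.71 for Casp9, 4.14 for Bak1, 2.15 for Bcl2, 2.05 for Bcl2l11, 0.861 for Bbc3 and 0.303 for Casp8, so that the top was 88.6 times the bottom. Mcl1 was above Bcl2l1 in 12 of 12 mice although their ranges overlapped, and Bcl2l1 was above Bax in 11 of 12, P32 mouse 4 being the exception. Bcl2 and Bcl2l11 could not be ordered, Bcl2 being higher in 8 of 12 mice. RPKM takes the merged exons of all annotated transcripts as the length, which lowers genes with long alternative ends such as Bcl2 and Bcl2l11.

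Ratios within a library set the opposing roles against each other, and they are given without a test. Bax to Bcl2 by RPKM was 5.18 to 6.12 in the P30 mice. In P32 mice 4, 5 and 6 it was 14.9, 7.71 and 6.67, all above P30, and it was 4.75 to 5.76 at P34 and 4.23 to 5.92 at P38. The genes of this pair are the shortest and the longest of the 9, and in mouse 4 length and deviation moved together as described above. The sum of Bax, Bak1, Bbc3 and Bcl2l11 over that of Bcl2, Bcl2l1 and Mcl1 was 0.407 to 0.425 at P30 and 0.598, 0.456 and 0.425 in P32 mice 4, 5 and 6. It was 0.371 to 0.378 at P34, under every P30 mouse, and 0.370 to 0.416 at P38. Bak1 to Mcl1 stayed between 0.144 and 0.183 and Bcl2l11 to Bcl2l1 between 0.0774 and 0.132 over the 12 mice, with the groups overlapping P30 in both.

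**Figure D4:**
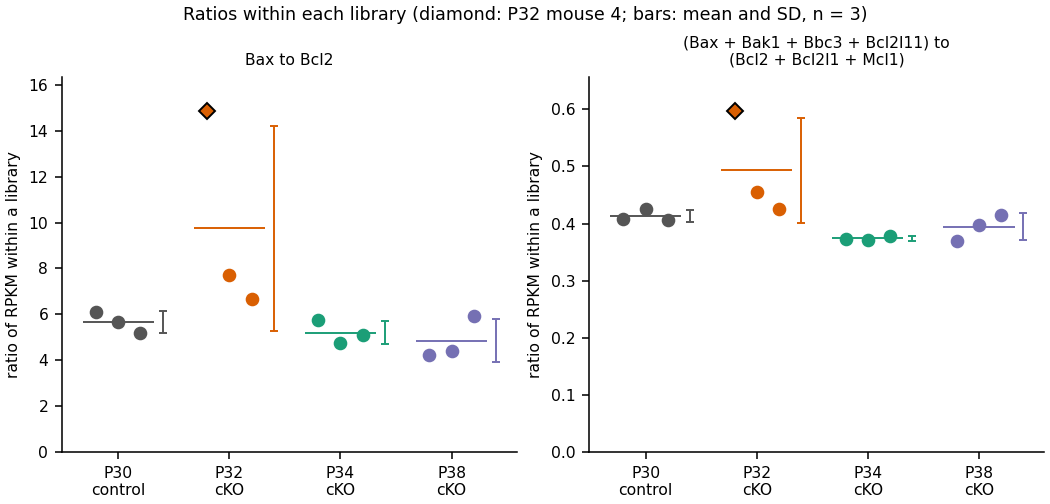
Ratio of RPKM within each library (vertical axes, from 0) by group (horizontal axes), for Bax to Bcl2 on the left and for the summed pro- to the summed anti-apoptotic genes on the right, with the mean as a line and the SD beside it (n = 3 per group). P32 mouse 4 (diamond) is highest in both, at 14.9 and 0.598, and the 3 P34 mice have summed ratios of 0.371 to 0.378.

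The rest of the pathway was read from a list of 50 further apoptosis genes chosen by role, of which 42 passed the filter on low counts. None of the 42 was called in any of the 7 comparisons, in either direction. Bik, Bcl2a1a, Bcl2a1b, Bcl2a1d, Fasl, Tnf, Ripk3 and Mlkl were too sparse to test, with at most 15 counts in any library. Ripk3 and Mlkl carry out necroptosis, and Fasl and Tnf are ligands of death receptors, and Tnf and Ripk3 held at most 2 and 4 counts, Mlkl 9 and Fasl 15. The 42 had medians of 0.0021, -0.10 and -0.03 (log2 fold change) at P32, P34 and P38.

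By length, 3 of these genes had a median above that of Mcl1, the highest of the 9. Xiap, which blocks caspases directly, had a median of 81.2 RPKM, the guardian Bcl2l2 (BCL-W) 44.4, the channel Vdac2, which holds BAK1 in check, 38.5. The stress factor Ddit3 (CHOP) followed at 24.8 RPKM. The DNA repair enzyme Parp1, a caspase substrate, was at 15.0 RPKM, Mdm2, which degrades p53, at 13.8, the BH3-only gene Bad at 7.52, the effector relative Bok at 4.31 and the caspase 8 inhibitor Cflar at 3.81. The necroptosis genes reached a median of 0.0291 RPKM in Mlkl.

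**Figure D5:**
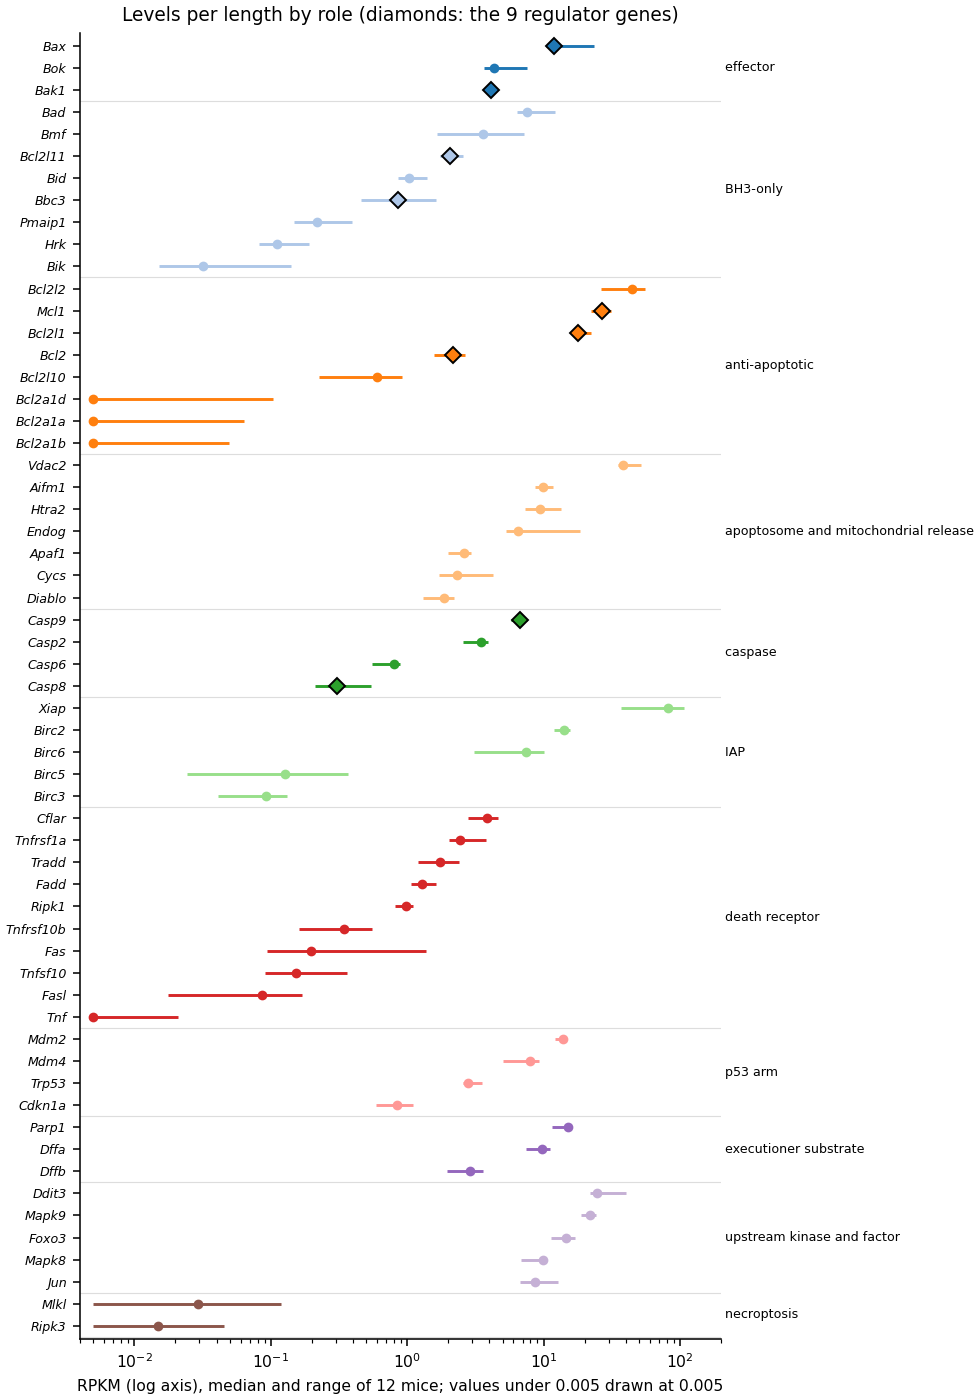
RPKM on a log axis (horizontal) for the 9 regulators (diamonds) and 50 further apoptosis genes (circles), grouped by role (vertical), each with its median and range over 12 mice and values under 0.005 drawn at 0.005. Xiap and Bcl2l2 lie above Mcl1, the highest of the 9, and the necroptosis genes lie at the left edge.

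Bcl2l2 and Xiap, the genes of highest mean RPKM in their roles, give 2 of the guardian and inhibitor values that sit beside the members. Not all genes of these roles moved with them. Bcl2l10, of the guardian list, lay below P30 without overlap at P34 and P38, and Birc5, of the inhibitor list, did at P34. Both were named after their values were seen. Bcl2l2 was at 156, 164 and 194 CPM in the P30 mice and 118, 167 and 177 CPM in the P32 mice. It then stood at 245, 211 and 222 CPM in the P34 mice and 221, 202 and 206 CPM in the P38 mice. All P34 and P38 mice were above all P30 mice, and its log2 fold change at P34 was 0.40 (SE 0.14, unadjusted p = 0.0178, adjusted p = 0.36 by edgeR). Xiap was at 584, 665 and 764 CPM at P30 and 349, 497 and 678 CPM at P32, with P32 mouse 4 the lowest of all. Its P34 and P38 mice, at 775 to 1005 CPM, were again all above P30, with log2 fold changes of 0.29 (SE 0.20, adjusted p = 0.653) and 0.42 (SE 0.20, adjusted p = 0.847). Against P32 the Xiap differences were 0.69 at P34 (SE 0.20, adjusted p = 0.0963) and 0.82 at P38 (SE 0.20, adjusted p = 0.114) by edgeR. DESeq2 called both (adjusted p = 0.0161 and 0.00538), in comparisons where it called 7.55% and 5.0% of all genes. For Bcl2l2 the difference between P34 and P32 was 0.56 by edgeR (SE 0.14, adjusted p = 0.0948) and was called by DESeq2 (0.55, adjusted p = 0.0104). Without P32 mouse 6, edgeR called both genes at P34 against P32 (adjusted p = 0.0141 for Xiap and 0.0194 for Bcl2l2), beside 14.3% of all genes. It also called both at P38 against P32 (0.0223 and 0.0392), beside 10.2%. With no filter on low counts it called Bcl2l2 at P34 (0.0466; 1.93% of all genes) and Xiap at P38 (0.0459; 0.591%). Without P32 mouse 4 it called neither, with differences of 0.48 and 0.61 for Xiap at P34 and P38 (SE 0.16 in both, adjusted p = 0.241 and 0.244) and of 0.40 for Bcl2l2 at P34 (SE 0.11, adjusted p = 0.234).

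The p53 arm feeds Bax and Bbc3, which are transcribed under p53. Trp53 was at 10.98 to 12.4 CPM at P30, 10.5 to 14.4 at P32, 10.4 to 10.7 at P34 and 10.6 to 12.7 at P38. Cdkn1a, the p53 target that halts the cell cycle, was at 3.41, 3.51 and 3.51 CPM at P30 and lower in each P32 mouse, at 2.55, 2.25 and 2.09 CPM. It was at 3.64, 2.18 and 3.52 CPM at P34, and P38 mice 10, 11 and 12 had 2.09, 3.92 and 2.41 CPM, so that 1 of 3 and 2 of 3 mice were as low as those of P32. The Cdkn1a log2 fold change at P32 was -0.60 (SE 0.26, unadjusted p = 0.0417, adjusted p = 0.698 by edgeR). Mdm2, also a p53 target, ranged only from 61.6 to 74.3 CPM over the 12 mice, with log2 fold changes of -0.02, -0.07 and -0.08 at P32, P34 and P38 (SE 0.09 in each).

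Death receptor genes were named after their values were seen. Tnfrsf1a, the TNF receptor that can recruit caspase 8, was at 7.59, 9.71 and 8.29 CPM at P30 and 8.19, 7.57 and 5.45 CPM at P32. The P34 mice had 5.25, 5.22 and 6.03 CPM and the P38 mice 6.07, 6.52 and 5.43 CPM, both below every P30 mouse. At P34 the log2 fold change was -0.63 (SE 0.18, unadjusted p = 0.00358, adjusted p = 0.214 by edgeR). DESeq2 placed that difference past the threshold (-0.63, adjusted p = 0.0382), as it did 1.98% of all genes at P34. At P38 edgeR gave -0.50 (SE 0.17, unadjusted p = 0.0137, adjusted p = 0.847). The highest values were in P30 mice 2 and 3, where the RPE and smooth muscle sums given with Casp8 were also high, and their part in Tnfrsf1a was not tested. Fas was at 2.59, 2.73 and 2.84 CPM in P30 mouse 3, P32 mouse 4 and P32 mouse 5 and at 0.193 to 0.584 CPM in the other 9 mice. Those 3 libraries also held the highest summed lens level, 28564 to 37949 CPM against 238 to 11828 CPM elsewhere, and the part of lens in the Fas values was not tested.

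For each member, the 1 gene with the most similar profile over the 12 libraries was found by Pearson's r of log2 CPM, as a description over libraries that include P32 mouse 4. Rp9 was most like Bax (r = 0.987), Ifi35 most like Bak1 (0.946), Fxyd2 most like Bbc3 (0.905), C2cd2l most like Bcl2l11 (0.856) and Stxbp4 most like Bcl2 (0.909). Wbp2 was most like Bcl2l1 (0.919), Rap1b most like Mcl1 (0.921), Pm20d1 most like Casp8 (0.914) and Smpx most like Casp9 (0.835), the last with 0 to 1.32 CPM. Without P32 mouse 4 the r of these pairs was 0.945 for Bax, 0.853 for Bbc3 and 0.851 for Bcl2, and 0.85 to 0.934 for the other 6. No member was the closest gene of another.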

How the data were processed

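Per the labels and the study's methods, the authors extracted total RNA from the retina of 1 eye per mouse, made poly(A)-selected stranded libraries and read 50 bases from one end of each fragment. Alignment to mm10 used STAR 2.5.3a, and HTSeq 0.6.1p1 gave the unique reads of each gene in Ensembl release 93. The strand option is not given in the sources used here; Tsix, opposite Xist, held 2 to 10 counts. The deposited values are raw counts, 1 set per mouse, with 5 summary rows left out. Reads with several positions (23.7 to 32.2% of the sum of gene counts and the 5 summary rows) were not counted. Groups came from the labels. The 9 genes and the further lists were chosen with earlier results of these data known; 2 further genes are not reported here.

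CPM (TMM) and tests used edgeR 4.0.16 in R 4.3.3: filterByExpr, 1 quasi-likelihood fit of 12 mice with a mean per group, a separate fit for the 9 cKO mice together, and Benjamini-Hochberg adjustment over 18628 genes. SE is the log2 fold change divided by the square root of F. DESeq2 1.42.0 was an alternative. Named genes are the 9, pathway genes that were called, the pathway gene of highest mean RPKM in each role but the caspases, Trp53, Cdkn1a, Mdm2, Otx2 and the most similar gene per member; others are said to be chosen afterwards. Symbols, lengths and sequences are from GENCODE M21 on GRCm38, which named 99.9% of genes. No pair of libraries of 1 group agreed within sampling noise (chi-square per degree of freedom 19.7 to 254). A count of 3 is 0.0499 to 0.101 CPM, counting error only. The mice are separate animals. The fit was tested on counts simulated with known changes at P34 against P30. It called 55 of 100 genes changed by 1 on the log2 scale and 87 of 99 changed by 2, with 6 false calls.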

Additional observations from a re-analysis of the deposited data

Results flagged for a closer look

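Among the 9 cKO mice, single values far from the rest were looked for in 21 genes (the 9 regulators and the further apoptosis genes named by rule), by the gap to the nearest mouse as a share of the range, and 7 genes had one past Dixon's critical value of 0.493. Chance alone gives about 1 in 20, and the share over all genes was not computed. Over 18614 genes the median size of the log2 deviation was 0.405 in P32 mouse 4, against 0.0979 to 0.208 in the other 11. P32 mouse 4 was the mouse in 6 of the 7. It was the highest for Bax (36.6 CPM, next 22.7, a gap of 0.688 of the range) and for Bbc3 (3.45 CPM, next 2.30, 0.501). Among the further genes it was highest for the effector relative Bok (13.8 CPM, next 9.41, 0.651), the stress factor Ddit3 (68.6 CPM, next 49.2, 0.625) and the BH3-only gene Bad (31.1 CPM, next 22.8, 0.565), and lowest for Parp1 (60.6 CPM, next 74.2, 0.626). The exon length trend of this library, given with the results, moved with these values, and its part in each was not tested gene by gene. This mouse was also the only male at P32. It had the highest summed lens level (37949 CPM), the largest share of reads with several positions (32.2%) and the lowest mitochondrial share (1.64%). Its rho of deviation with GC content was 0.22, within the -0.35 to 0.27 of the other 11. The part of these was not tested either. Bcl2l1 in P34 mouse 7 was the other, at 102 CPM with 89.9 CPM next and a gap of 0.527 of the range.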

How the results depend on the processing

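No paired analysis was possible because the replicate numbers run from 1 to 12 and no 2 groups share one. None of the 9 genes was called by edgeR under DESeq2 size factors, no filter on low counts, a robust fit, sex as a covariate, only the groups compared, no limit on the fold, or length and GC offsets (chosen after seeing the data). DESeq2's Wald test called 1 member, Bax, between P34 and P32 (7.55% of all genes) and between P38 and P32 (5.0%). Its likelihood ratio test called Bax in the joint test (7.31%). An unadjusted p of at most 0.05 with the fold limit passed 1 member at P34 (Casp8), 1 between P34 and P32 and 1 between P38 and P32 (Bax in both). Leaving out 1 mouse gave 0 to 1 members between P34 and P32 and 0 to 1 between P38 and P32, the 1 being Bax without P32 mouse 6, and 0 elsewhere. Of 1188 member fold changes recomputed, 57 took the other sign, in 25 of 63 pairs of member and comparison, none of which was above 0.16 in size on the log2 scale in the reported fit. The cause of these changes was not tested.

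For the 42 further pathway genes, the counts by unadjusted p with the fold limit became 2 at P32 (2.9% of all genes), 3 at P34 (6.27%) and 1 at P38 (3.46%). They were 9 between P34 and P32 (14.4%), 1 between P38 and P34 (3.81%) and 5 between P38 and P32 (11.9%). DESeq2 gave 1 at P34 (1.98% of all genes), 5 between P34 and P32 (7.55%) and 2 between P38 and P32 (5.0%). No filter on low counts gave 3 and 1 for the last 2 comparisons (1.93% and 0.591%). In the joint test DESeq2 called 4 of them (Bcl2l2, Fas, Tnfrsf1a and Xiap; 7.31% of all genes) and edgeR without P32 mouse 6 called 2 (Fas and Xiap; 3.08%). Leaving out 1 mouse gave 0 to 8 between P34 and P32 and 0 to 4 between P38 and P32. The highest counts were without P32 mouse 6, where 14.3% and 10.2% of all genes were called.

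Counts over all genes moved most. With no filter they were 23 at P32, 298 at P34, 18 at P38, 656 between P34 and P32, 115 between P38 and P34, 201 between P38 and P32 and 26 for the 9 cKO mice. With DESeq2 they were, in that order, 25, 369, 45, 1406, 144, 932 and 46, and by unadjusted p with the fold limit 540, 1168, 645, 2687, 709, 2220 and 351. With only the groups compared they were 229 at P34, 11 between P34 and P32, 71 between P38 and P34 and 1 between P38 and P32. Sex as a covariate gave 92 between P34 and P32 and 0 for the 9 cKO mice, and length and GC offsets 1 between P38 and P32. Without 1 mouse they ranged from 0 to 19 at P32, 43 to 213 at P34, 0 to 13 at P38, 14 to 2726 between P34 and P32, 8 to 58 between P38 and P34, 0 to 1946 between P38 and P32 and 0 to 48 for the 9 cKO mice; 2726 and 1946 were without P32 mouse 6. Bbc3 and Casp8 have the fewest counts of the 9 and the widest intervals, and the part of depth in that was not tested.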
